A study of Homo sapiens with 9 samples.

Results

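The BCL2 family genes described here are 10 genes of the mitochondrial cell-death pathway, chosen by gene symbol: the BH3-only genes BBC3, HRK, PMAIP1 and BCL2L11, the effectors BAX, BAK1 and BOK, and the pro-survival genes BCL2, BCL2L1 and MCL1. All 10 were found among the 35762 gene symbols of the table, and all 10 passed the filter on low counts that left 15345 genes tested. The RNA came from TYUC-1, which the labels call a neuroendocrine carcinoma line of the esophagus grown in suspension. All libraries come from this 1 cell line. The groups were cells on day 0, day 3 and day 6, with 3 libraries each that the design text calls biological replicates, and every library is labelled with EPZ-6438 (tazemetostat), which blocks EZH2, the enzyme that methylates histone H3 and silences genes. The protocol names 2 uM EPZ-6438 or DMSO, and the labels leave unsaid if cells of day 0 were given the vehicle. None of the 9 libraries is a vehicle library from day 3 or day 6. Exposure and days in culture therefore cannot be told apart in any comparison below.

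Proteins of the BCL2 family decide whether the outer membrane of the mitochondrion is opened, which releases cytochrome c and starts the caspases. BH3-only proteins respond to stress and bind the pro-survival proteins or the effectors, the effectors BAX and BAK form the pores, and the pro-survival proteins hold both in check. Transcript levels are one layer of this control, since several members, MCL1 and PMAIP1 among them, are short-lived proteins, and RNA alone gives no protein level.

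Libraries held 21638874 to 31235055 estimated counts, so that 3 counts, the upper limit a count of 0 allows for counting error only, equal 0.0979 to 0.141 CPM (the count relative to the TMM-scaled library size). Day 0 replicate 2 stood apart from the other day 0 libraries, with a chi-square per degree of freedom over genes of 55.4 and 47.6 against them, beside 3.53 to 16.2 for the other pairs within a day. Without it every member call below was kept. Of the neuroendocrine markers 9 of 10 had counts, with summed levels of 486 to 538 CPM on day 0, 549 to 557 on day 3 and 544 to 604 on day 6, while CHGA was at 0 in all 9 libraries. All 6 epithelial markers had counts, with sums of 1694 to 1935, 1577 to 1675 and 1813 to 1992 CPM. Within that sum EPCAM fell by day 6, from 468 ± 86.5 (SD, n = 3) to 306 ± 16.6 CPM (log2 change -0.61, adjusted p = 0.000685), and CLDN4 rose from 40.2 ± 2.46 to 123 ± 12.3 CPM (log2 change 1.61, adjusted p = 6.17e-08). Markers of other cell types also moved with the days, and their part in the results was not tested. Of 6 fibroblast markers 5, 5 and 6 had counts on days 0, 3 and 6, with LUM at 0 on days 0 and 3. Their sums were 0.850 to 1.46 CPM on day 0, 4.65 to 5.66 on day 3 and 10.2 to 12.2 on day 6. COL1A1 was the only 1 of them to average over 1 CPM, with 0.492, 3.60 and 9.53 CPM on days 0, 3 and 6. Sums over 5 endothelial markers (5, 5 and 4 with counts) were 0.987 to 1.24, 1.43 to 2.44 and 1.78 to 2.75 CPM. Only VWF among these averaged over 1 CPM, with 0.288, 1.23 and 1.29 CPM on days 0, 3 and 6. Sums over 6 leukocyte markers (4, 5 and 4 with counts), nearly all of it LYZ, with NKG7 at 0 in every library and CD3E at 0 on days 0 and 6, lay at 486 to 640 CPM on day 0, lower at 342 to 359 on day 3, and at 324 to 327 on day 6. In bulk RNA, fewer cells of a kind and less RNA per cell cannot be told apart.

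BBC3 and BOK had the largest rises of the family, HRK and BCL2 rose less, PMAIP1 and MCL1 fell, and the RNA of BAX, BAK1, BCL2L11 and BCL2L1 passed the test in no comparison. From day 0 to day 6 the fold was 5.56 for BBC3, 7.07 for BOK, 1.91 for HRK and 1.39 for BCL2, while PMAIP1 fell by 39.1% and MCL1 fell by 25.6%. With edgeR's quasi-likelihood test and Benjamini-Hochberg adjustment over all genes, 6 of 10 members passed 0.05 on day 3 against day 0 (4 higher, 2 lower), in a comparison where 40.6% of all tested genes passed (22.5% higher, 18.1% lower). On day 6 against day 0 again 6 of 10 passed (4 higher, 2 lower), against 54.6% of all genes (28.9% higher, 25.7% lower), and the share of members called lay close to the background. Libraries of the 2 days compared did not overlap for 6, 6 and 5 members in turn (day 3 and day 6 against day 0, then day 6 against day 3), beside 53.8%, 58.7% and 43.5% of all genes. On day 6 against day 3, BBC3 and HRK passed and were higher, 2 of 10 against 16.3% of all genes (11.5% higher). The members' median log2 change was 0.08, -0.03 and -0.07 in these comparisons, beside 0.01, 0.01 and -0.00 over all genes. Day 3 and day 6 were set against the same day 0 libraries, so these 2 comparisons are not independent of each other.

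**Figure D1:**
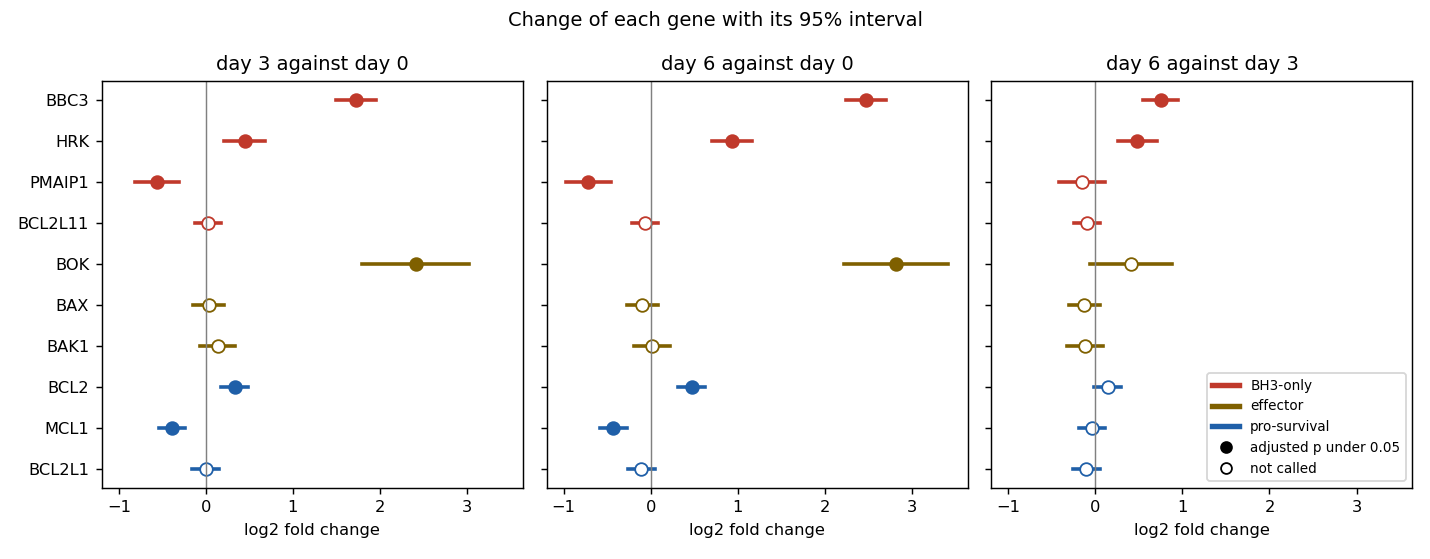
Log2 fold change of each of the 10 genes with its 95% interval for the 3 comparisons between days, from the edgeR fit of all 9 libraries, with filled points where the adjusted p was under 0.05. BBC3 (2.47) and BOK (2.82) lie farthest to the right on day 6 against day 0, PMAIP1 (-0.72) lies farthest to the left, and the intervals of BAX, BAK1, BCL2L11 and BCL2L1 include 0.

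The 3 members with the largest rises and the member with the largest fall, BBC3, BOK, HRK and PMAIP1, are shown with the DNA upstream of their RefSeq start (GRCh38.p14). These regions are chr19:47232767-47232917 on the minus strand for BBC3, chr2:241558495-241558720 on the plus strand for BOK, chr12:116881442-116881691 on the minus strand for HRK and chr18:59899746-59899947 on the plus strand for PMAIP1. Each is the part of the 250 bases before that start, up to the first base that GENCODE places in an exon of the gene, written 5′ to 3′ on the gene's strand, with GC boxes (GGGCGG on either strand) in capitals.
BBC3: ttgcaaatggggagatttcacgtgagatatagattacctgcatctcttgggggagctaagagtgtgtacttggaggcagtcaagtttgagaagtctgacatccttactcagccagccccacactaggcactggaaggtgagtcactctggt
BOK: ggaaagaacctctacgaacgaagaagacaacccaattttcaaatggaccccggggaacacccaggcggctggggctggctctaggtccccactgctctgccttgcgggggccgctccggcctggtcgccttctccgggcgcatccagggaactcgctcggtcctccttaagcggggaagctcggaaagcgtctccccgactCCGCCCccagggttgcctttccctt
HRK: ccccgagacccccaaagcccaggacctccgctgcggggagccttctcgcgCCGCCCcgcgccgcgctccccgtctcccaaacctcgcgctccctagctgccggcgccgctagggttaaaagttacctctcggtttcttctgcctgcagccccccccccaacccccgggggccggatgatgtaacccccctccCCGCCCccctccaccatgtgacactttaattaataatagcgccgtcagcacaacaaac
PMAIP1: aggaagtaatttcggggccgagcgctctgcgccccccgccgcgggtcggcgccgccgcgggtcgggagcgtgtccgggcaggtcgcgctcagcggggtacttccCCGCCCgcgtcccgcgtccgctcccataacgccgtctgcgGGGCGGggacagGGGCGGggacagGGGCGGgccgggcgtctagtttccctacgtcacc
The full 250-base windows differed in CpG dinucleotides, the pairs at which promoters can be methylated. The BBC3 window held 4 CpG, more than in 29.3% of 35114 RefSeq windows of the same length, and the PMAIP1 window held 36, more than in 95.2%. BOK held 17 and HRK held 22, beside a median of 11 over all windows. PMAIP1 had 4 GC boxes, HRK 2, BOK 1 and BBC3 none, and 42.6% of all windows held at least 1. BBC3 had 1 CACGTG, the E-box found in 6.35% of windows. The p53 half-site, searched by its degenerate consensus on both strands and present in 5.57% of all windows, had no match in these 4 windows, which says only that its letters are not there. RefSeq windows were given for 9 of 10 members, without MCL1. GENCODE annotates more than 1 start for each of the 4 genes shown: 4 for BBC3, 2 for BOK, 4 for HRK and 3 for PMAIP1. The BOK stretch lies inside the annotated gene, which begins at 241551424, and so does not precede its first start. Neither histone marks nor DNA methylation were measured, so the sequences describe the genes and no more.

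BBC3 encodes PUMA, a BH3-only protein that binds all the main pro-survival members and is a known target of p53. The gene lies on chromosome 19 at 47220822 to 47232766 on the minus strand, with 4 protein-coding transcripts of 6 (GENCODE 29, GRCh38). Its level was 3.17, 3.40 and 3.29 CPM in the day 0 libraries, 11.5, 10.5 and 10.6 on day 3, and 18.0, 17.1 and 19.6 on day 6. The 3 days form 3 separate ranges, each above the earlier one, with little spread within a day. BBC3 rose 3.31-fold by day 3 (95% interval 2.82 to 3.87, adjusted p = 6.18e-07) and 5.56-fold by day 6 (4.75 to 6.50, adjusted p = 5.69e-09), and the step from day 3 to day 6 was 1.68-fold (1.46 to 1.93, adjusted p = 0.000148). On the log2 scale 69.7% of the day 6 change was there by day 3. A larger rise by day 6 was seen in 6.12% of all tested genes.

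**Figure D2:**
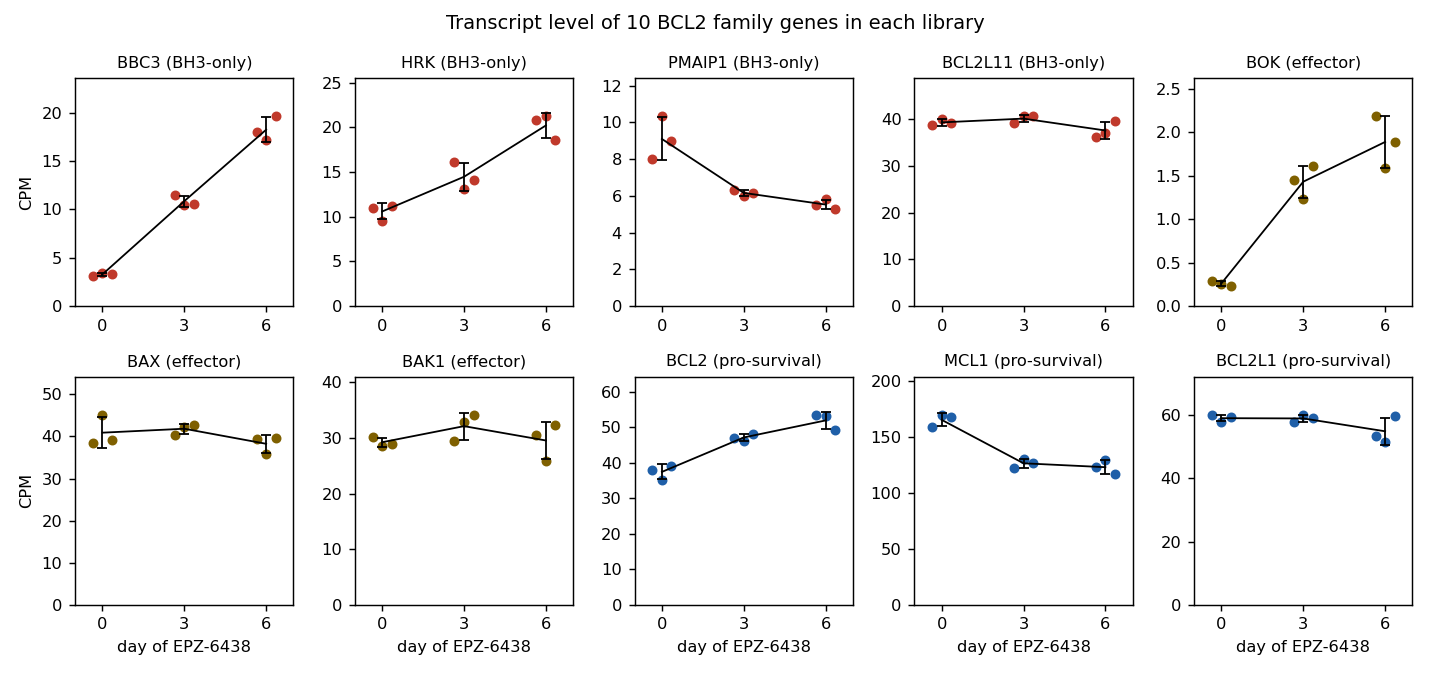
Level of each of the 10 genes in CPM (y axis, own linear scale from 0 in each panel) in the 3 libraries of day 0, day 3 and day 6, coloured by role, with a line through the means and error bars of 1 SD (n = 3). BBC3, HRK and BCL2 step up at each day, PMAIP1 and MCL1 step down by day 3, and the libraries of BAX, BAK1, BCL2L11 and BCL2L1 overlap between day 0 and the later days.

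HRK encodes Harakiri, a BH3-only protein known from neurons that binds BCL2 and BCL-xL. It lies on chromosome 12 at 116856144 to 116881441 on the minus strand. HRK stood at 11.03, 9.56 and 11.2 CPM on day 0, at 16.2, 13.1 and 14.1 on day 3, and at 20.8, 21.2 and 18.6 on day 6. Again no library of one day overlapped another day, but the steps were smaller than those of BBC3. The rise was 1.37-fold by day 3 (1.16 to 1.61, adjusted p = 0.00619) and 1.91-fold by day 6 (1.62 to 2.24, adjusted p = 1.90e-05), with 1.40-fold from day 3 to day 6 (1.19 to 1.64, adjusted p = 0.00711). By day 3, 48.2% of the day 6 log2 change had been reached.

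PMAIP1 encodes NOXA, a BH3-only protein that binds MCL1 above all and, like PUMA, is a known p53 target. The gene lies on chromosome 18 at 59899948 to 59904306 on the plus strand. Its level was 7.998, 10.3 and 8.98 CPM on day 0, then 6.33, 5.99 and 6.17 on day 3 and 5.48, 5.82 and 5.29 on day 6. Every later library lay below every day 0 library, opposite to BBC3. PMAIP1 fell by 32.1% by day 3 (adjusted p = 0.00295) and fell by 39.1% by day 6 (log2 change -0.72 ± 0.12 SE, adjusted p = 0.000322). The day 6 libraries also lay below those of day 3, a log2 difference of -0.16 (95% interval -0.42 to 0.11) that did not pass the test (adjusted p = 0.447). A larger fall by day 6 was seen in 3.32% of tested genes.

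BCL2L11 encodes BIM, the BH3-only protein that binds every pro-survival member and can activate BAX and BAK directly. It lies on chromosome 2 at 111119378 to 111168447 on the plus strand. It stood at 38.7, 40.1 and 39.1 CPM on day 0, 39.2, 40.6 and 40.6 on day 3, and 36.1, 37.0 and 39.6 on day 6, with overlapping libraries between all days. The log2 change by day 6 was -0.07 (95% interval -0.21 to 0.08, adjusted p = 0.445), so a fall or rise within this interval remains possible. BIM has many splice forms that differ in how strongly they kill, and the 25 annotated transcripts (17 coding) were counted as 1 gene. The annotated span of BCL2L11 overlaps that of MIR4435-2HG on the other strand. Whether the 2 genes share exon sequence, where reads could be confused if strand was not used, was not checked. The spans of BBC3, BCL2, BCL2L1 and MCL1 also overlap those of other annotated genes.

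Among the effectors, BOK is a relative of BAX and BAK whose activity is thought not to depend on BH3-only proteins. It lies on chromosome 2 at 241551424 to 241574138 on the plus strand and overlaps an antisense gene, BOK-AS1. BOK was close to the lower end of detection on day 0, with 9, 6 and 5 counts (0.294, 0.255 and 0.235 CPM), and had 39, 37 and 37 counts on day 3 (1.45, 1.24 and 1.61 CPM) and 65, 37 and 44 on day 6 (2.185, 1.59 and 1.89 CPM). Day 0 was below all later libraries, and the ranges of day 3 and day 6 overlapped. The fold was 5.32 by day 3 (3.48 to 8.15, adjusted p = 6.12e-05) and 7.07 by day 6 (4.67 to 10.7, adjusted p = 5.28e-06), with 85.5% of the log2 change reached by day 3. The difference of day 6 from day 3 did not pass (1.33-fold, 0.956 to 1.85, adjusted p = 0.248). Day 0 libraries differed by less than counting alone gives on average, with a coefficient of variation of 11.4% against 38.7% from Poisson counting.

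BAX, the cytosolic effector that moves to mitochondria on activation, lies on chromosome 19 at 48954815 to 48961798 on the plus strand. It was at 38.5, 45.1 and 39.1 CPM on day 0, at 40.5, 42.3 and 42.7 on day 3 and at 39.4, 35.8 and 39.6 on day 6. Day 0 overlapped both later days, and the log2 change by day 6 was -0.10 (95% interval -0.27 to 0.08, adjusted p = 0.348). The day 6 libraries all lay below those of day 3, but the difference of -0.13 (-0.31 to 0.05) did not pass (adjusted p = 0.343). BAK1, the effector that sits in the mitochondrial membrane, lies on chromosome 6 at 33572547 to 33580293 on the minus strand. It had 30.1, 28.6 and 28.9 CPM on day 0, 29.4, 32.8 and 34.1 on day 3 and 30.5, 25.8 and 32.3 on day 6. Its libraries overlapped between all days, and its log2 change by day 6 was 0.02 (-0.19 to 0.22, adjusted p = 0.903). BAK1 has pseudogene copies, of which BAK1P1 had 0 to 3 counts per library and BAK1P2 had 0, and it overlaps GGNBP1, which had 8 to 20.

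Of the pro-survival genes, BCL2 rose and MCL1 fell. BCL2, the founding member and the target of venetoclax, lies on chromosome 18 at 63123346 to 63320128 on the minus strand. It had 38.0, 35.1 and 39.1 CPM on day 0, 46.9, 46.2 and 48.2 on day 3 and 53.4, 53.1 and 49.2 on day 6. The libraries of the 3 days did not overlap. BCL2 rose 1.26-fold by day 3 (1.13 to 1.40, adjusted p = 0.00369) and 1.39-fold by day 6 (1.24 to 1.55, adjusted p = 0.000179), while day 6 against day 3 did not pass (log2 change 0.14, -0.02 to 0.30, adjusted p = 0.228).

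MCL1, a short-lived pro-survival protein that holds BAK and is bound by NOXA, lies on chromosome 1 at 150574551 to 150579738 on the minus strand. It had 159, 170.0 and 168 CPM on day 0. The level was 122, 131 and 127 CPM on day 3 and 123, 129.5 and 117 on day 6. Day 0 lay above all later libraries, and days 3 and 6 overlapped. MCL1 fell by 23.5% by day 3 (adjusted p = 0.00122) and fell by 25.6% by day 6 (log2 change -0.43 ± 0.07 SE, adjusted p = 0.000300), with 90.5% of the log2 change reached by day 3. Day 6 differed from day 3 by a log2 value of -0.04 (95% interval -0.19 to 0.11, adjusted p = 0.767).

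BCL2L1, which encodes BCL-xL and the shorter, pro-apoptotic BCL-xS, lies on chromosome 20 at 31664452 to 31723989 on the minus strand. It was at 59.9, 57.9 and 59.3 CPM on day 0, at 57.8, 60.0 and 58.9 on day 3 and at 53.4, 51.4 and 59.7 on day 6. All days overlapped, and the log2 change by day 6 was -0.11 (95% interval -0.27 to 0.05, adjusted p = 0.245). Gene-level counts sum the long and short forms of BCL2L1, and likewise those of MCL1, so a change between splice forms was not measured. On day 3 against day 0, the 4 members that passed in no comparison had log2 changes of 0.03 for BCL2L11 (95% interval -0.12 to 0.18), 0.03 for BAX (-0.15 to 0.21), 0.14 for BAK1 (-0.07 to 0.34) and -0.00 for BCL2L1 (-0.16 to 0.16). The widest of these intervals, that of BAK1, still includes a rise as large as the one BCL2 had by day 3 (0.33).

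Ratios within a library do not depend on how libraries were scaled, and were used to set members against each other. For every 100 MCL1 counts there were 1.99, 2.00 and 1.96 BBC3 counts on day 0, 9.41, 8.02 and 8.32 on day 3 and 14.6, 13.2 and 16.8 on day 6. BCL2 had 23.9, 20.6 and 23.3 per 100 MCL1 counts on day 0, then 38.3, 35.3 and 38.0 on day 3, and 43.4, 41.0 and 42.1 on day 6. Neither ratio overlapped between days. Per 100 PMAIP1 counts, BBC3 had 36.4 ± 3.34 (SD, n = 3) on day 0, 176 ± 5.35 on day 3 and 331 ± 38.0 on day 6. Per kilobase of the longest transcript, PMAIP1 stood above BBC3 on day 0 (4.67 against 1.79 CPM per kb) and below it on day 6 (2.84 against 9.93). The ratio of PMAIP1 to MCL1, which encode a known binding pair, moved less, from 5.48 ± 0.538 per 100 to 4.87 ± 0.301 and 4.49 ± 0.0384. BCL2 per 100 BAX counts stood at 92.2 ± 12.5, 113 ± 3.43 and 136 ± 12.0. These ratios are descriptions, and were not tested apart from the genes themselves.

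**Figure D3:**
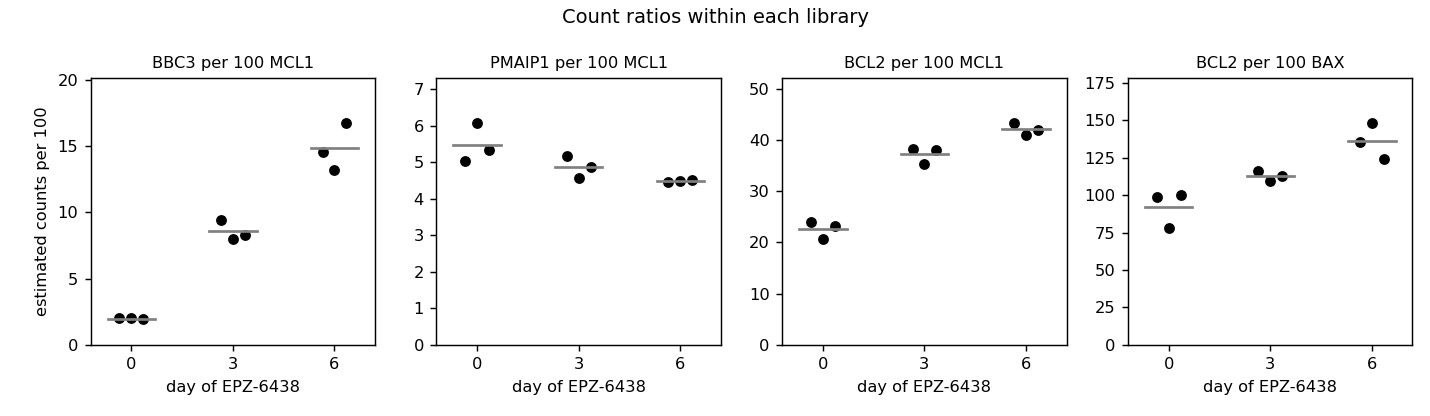
Count of 1 member per 100 counts of another in the same library (y axis) for each of the 9 libraries by day, with the mean of each day as a grey line. BBC3 per 100 MCL1 counts goes from 1.98 ± 0.0225 (SD, n = 3) on day 0 to 14.9 ± 1.79 on day 6, and BCL2 per 100 MCL1 counts from 22.6 to 42.1 as the mean of 3 libraries.

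Levels of different genes were compared per kilobase, with the length of each gene's longest transcript. On day 0 the order of CPM per kb was MCL1 (42.1), BAX (30.1), BCL2L1 (22.6), BAK1 (13.2), BCL2L11 (7.51), BCL2 (5.01), PMAIP1 (4.67), HRK (1.83), BBC3 (1.79) and BOK (0.0983). BCL2 and PMAIP1, and HRK and BBC3, were neighbours in this order that did not differ beyond their spread. With the median transcript length HRK (14.4 CPM per kb) and BBC3 (2.00) were not neighbours on day 0, so their order depends on the length used. On day 6 BBC3 stood at 9.93 CPM per kb, after MCL1 (31.3), BAX (28.2), BCL2L1 (21.0) and BAK1 (13.4), and BOK stayed lowest at 0.712. With the median transcript length HRK, BCL2L11 and BCL2 also stood above BBC3 on day 6, while MCL1, BAX and BCL2L1 held the first 3 places on every day under both lengths, and BOK the last.

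**Figure D4:**
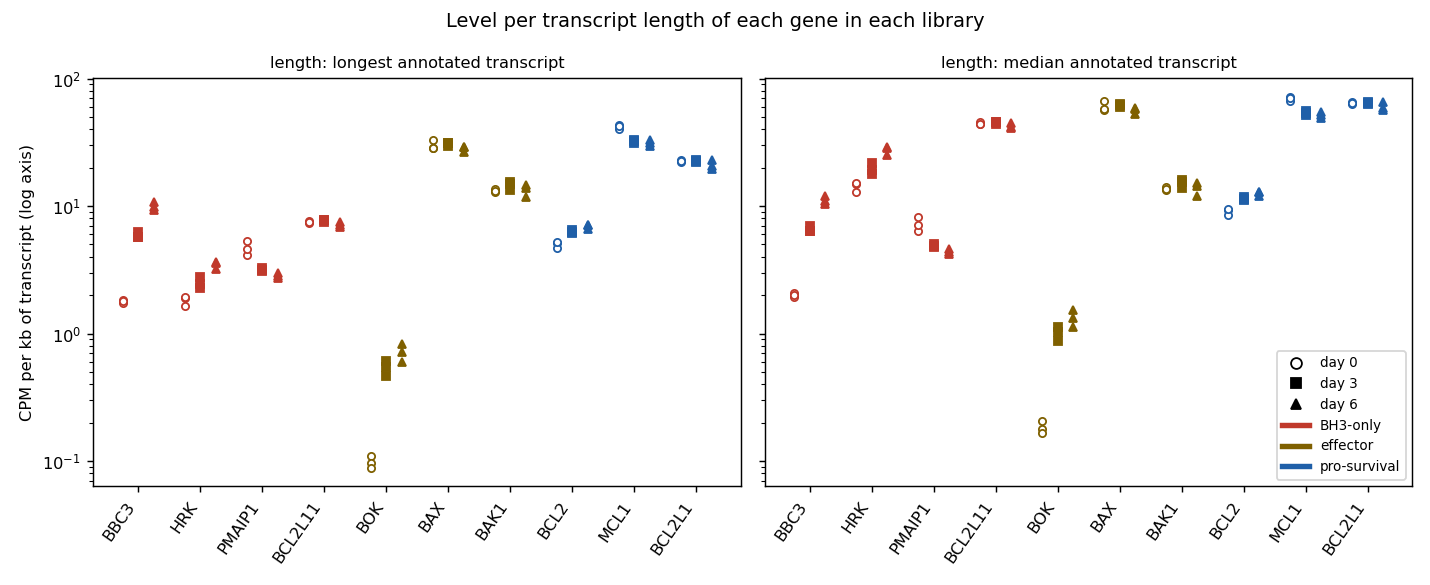
Level per kilobase of transcript (CPM per kb, log axis) of the 10 genes by day, in each library, computed with the longest (left) and with the median transcript length (right), with colours for role and symbols for the day. BOK is lowest throughout (0.0983 on day 0 with the longest transcript), and MCL1, BAX and BCL2L1 are the highest 3.

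By role, the 4 BH3-only genes made up 12.2% ± 0.186 (SD, n = 3) of the members' summed per-length level on day 0, 15.3% ± 0.737 on day 3 and 18.8% ± 0.325 on day 6. The 3 pro-survival genes went from 54.1% ± 1.17 to 48.4% ± 0.480 and 47.5% ± 1.53, and the 3 effectors stood at 33.7% ± 1.08, 36.3% ± 0.829 and 33.8% ± 1.69. With the median transcript length the BH3-only share was 23.8%, 27.0% and 30.3% and the pro-survival share 50.2%, 45.6% and 44.2%. Both lengths gave a higher BH3-only share and a lower pro-survival share on the later days, while the shares themselves depended on the length used. The genes of a role did not move together. Per kb of the longest transcript, BBC3 went from 1.79 CPM on day 0 to 9.93 on day 6, and HRK from 1.83 to 3.49. PMAIP1 went from 4.67 to 2.84 and BCL2L11 from 7.51 to 7.18. Among the pro-survival genes, MCL1 went from 42.1 to 31.3, BCL2L1 from 22.6 to 21.0 and BCL2 from 5.01 to 6.96.

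Other genes of the cell-death pathway were read from the same fit in 9 lists of 89 genes, of which 80 were tested. On day 6 against day 0, 23 were higher and 23 lower, beside 28.9% of all genes higher and 25.7% lower, and the median log2 change of the lists together was 0.00. On day 3 against day 0 the counts were 18 higher and 13 lower, beside 22.5% of all genes higher and 18.1% lower.

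Among the other BH3-only and BH3-like genes, 3 of 6 rose by day 6 and none fell. BMF, a BH3-only protein bound to the cell skeleton until stress frees it, went from 12.9 ± 2.18 CPM (SD, n = 3) on day 0 and 12.7 ± 0.151 on day 3 to 19.4 ± 0.521 on day 6 (log2 change 0.59 ± 0.11 SE, adjusted p = 0.000862). BNIP3L, a receptor for the removal of mitochondria, went from 124 ± 29.3 to 205 ± 21.6 CPM by day 6 (log2 change 0.73 ± 0.14 SE, adjusted p = 0.000912). BID, which links death receptors to BAX and BAK, had 42.7 ± 2.98, 65.1 ± 11.3 and 52.9 ± 2.70 CPM on days 0, 3 and 6, and its call by day 6 (adjusted p = 0.0408) was lost in 7 of 18 alternatives, with adjusted p up to 0.132. These were the replicate block (adjusted p = 0.0505) and leaving out day 0 replicate 1 or 3, day 3 replicate 1 or any day 6 library. Without day 0 replicate 2, or scaled by library size only, 5 of 6 rose. The list's median log2 change by day 6 was 0.27, beside 0.01 over all genes. The remaining tested pro-survival gene, BCL2L2 (BCL-w), had 53.3 ± 3.19 CPM on day 0 and 49.9 ± 1.03 on day 6 (adjusted p = 0.316), and BCL2A1 and BCL2L10 had at most 1 count in a library. Of 3 less characterised relatives tested, none passed in any comparison.

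By day 6, 25.7% of all genes were lower and 28.9% higher, the background for both lists in this paragraph. Genes for partners and turnover of the family fell in 5 of 7 cases by day 6 and none rose, with a median log2 change of -0.39. It was 3 of 7 without day 6 replicate 3, with library-size scaling, and among genes averaging 5 CPM or more. FBXW7, a ubiquitin ligase subunit that marks MCL1 for destruction, went from 37.0 ± 1.69 CPM to 25.1 ± 1.05 (log2 change -0.56 ± 0.07 SE, adjusted p = 6.13e-05). VDAC2, the outer-membrane channel that binds BAK, went from 183 ± 26.6 to 137 ± 5.21 CPM (log2 change -0.42 ± 0.10 SE, adjusted p = 0.00359), and MTCH2, the receptor for BID on mitochondria, had a log2 change of -0.54 ± 0.11 SE (adjusted p = 0.00126). Downstream of the pore, 8 of 13 genes of the apoptosome, caspases and released factors fell and 1 rose (median log2 change -0.35). The 3 falls with the lowest p were those of AIFM1, from 158 ± 10.1 to 100.2 ± 8.46 CPM (log2 change -0.65 ± 0.08 SE, adjusted p = 3.80e-05), and of DFFA and DFFB, the inhibitor and the nuclease that cuts DNA, each with a log2 change of -0.62 ± 0.09 SE. CYCS, which encodes cytochrome c and was singled out after its values were seen, went from 605 ± 129.97 to 389 ± 26.5 CPM (log2 change -0.64 ± 0.13 SE, adjusted p = 0.00128).

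Of 7 inhibitors of apoptosis 2 rose by day 6 and none fell, while without day 0 replicate 2 there were 2 higher and 2 lower, and 0 of 4 tested passed among genes averaging 5 CPM or more. The median log2 change was -0.07. BIRC3 went from 0.891 ± 0.124 to 1.97 ± 0.317 CPM (log2 change 1.15 ± 0.23 SE, adjusted p = 0.00136), and BIRC7 had 1 count over the 3 day 0 libraries and 39 over those of day 6, a ratio of 38.6 with a counting interval of 6.53 to 1564. In the death receptor pathway 6 of 14 tested genes rose and 1 fell (median log2 change 0.12). The background over all genes, for this list and the inhibitors, was 28.9% higher and 25.7% lower. TNFRSF1A, a receptor for TNF, rose from 6.13 ± 0.558 to 12.5 ± 1.08 CPM (log2 change 1.04 ± 0.12 SE, adjusted p = 1.64e-05). The TRAIL receptors TNFRSF10D, a decoy, and TNFRSF10B, which signals death, rose by log2 changes of 0.77 ± 0.09 SE and 0.45 ± 0.07 SE.

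Of p53 and its targets outside the family 6 of 18 tested rose by day 6 and 6 fell (median log2 change 0.11). Over all genes 28.9% were higher and 25.7% lower. The 6 that fell were TIGAR (log2 change -0.66), GADD45A (-0.59), AEN (-0.52), MDM2 (-0.48), RRM2B (-0.37) and ZMAT3 (-0.37). CDKN1A (p21), an inhibitor of the cell cycle, rose from 3.17 ± 0.646 CPM on day 0 to 16.0 ± 1.70 on day 6, with 9.34 ± 0.289 on day 3 (log2 change 2.33 ± 0.14 SE, adjusted p = 9.42e-08). TP53INP1 and FDXR rose by log2 changes of 1.49 ± 0.17 SE and 1.07 ± 0.09 SE. In the list of 11 transcriptional activators of BH3-only genes 5 rose and 3 fell (median log2 change 0.13), and 6 rose and 1 fell when scaled by library size only. The 5 include TRIB3, a pseudokinase induced downstream of ATF4 that is not itself a transcription factor. TRIB3 went from 35.02 ± 1.96 to 82.4 ± 8.50 and 79.8 ± 11.7 CPM (log2 change by day 6 of 1.19 ± 0.11 SE), and FOXO4 from 8.16 ± 0.835 to 16.4 ± 0.840 CPM (1.00 ± 0.10 SE). E2F1, an activator of cell-cycle genes, fell from 84.3 ± 3.91 to 56.9 ± 5.02 CPM by day 6 (log2 change -0.57 ± 0.08 SE, adjusted p = 0.000123).

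**Figure D5:**
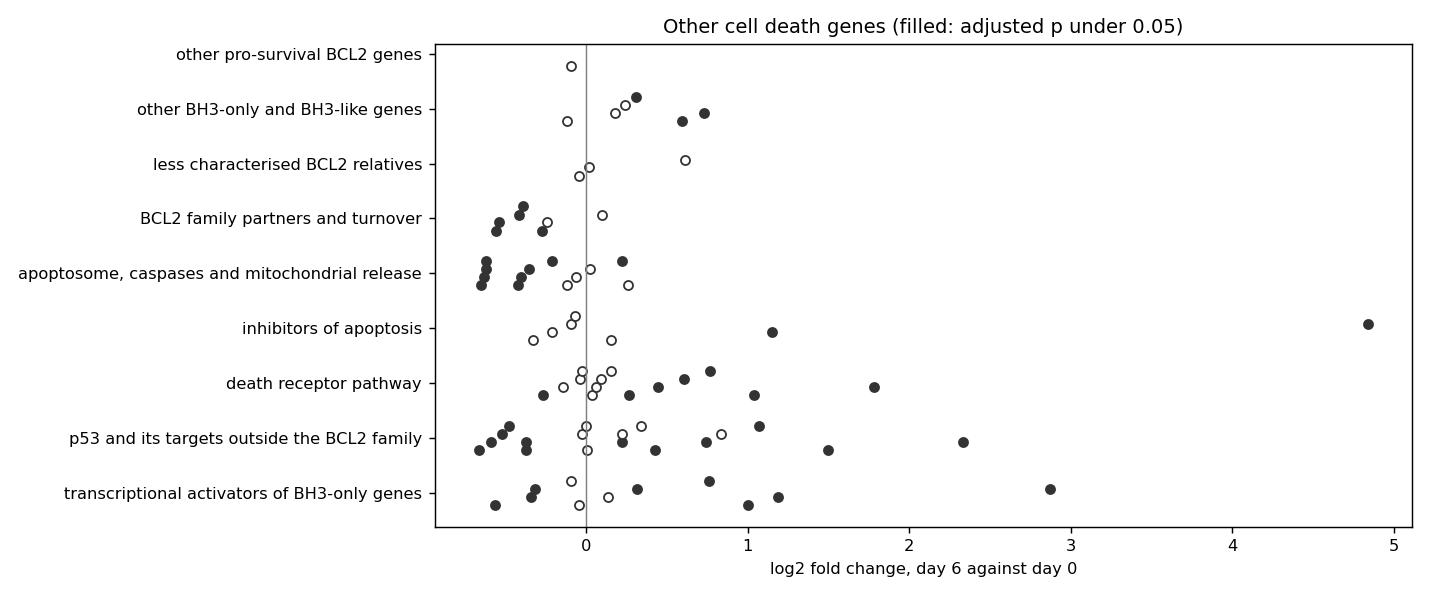
Log2 fold change of day 6 against day 0 for the tested genes of the cell-death lists outside the 10 members, 1 row per list (height within a row only separates points), with filled points where the adjusted p was under 0.05. The list of partners and turnover has 5 called genes, all to the left of 0, the list of p53 targets has 6 on each side, and the point farthest to the right is BIRC7, which had 1 count over the day 0 libraries.

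Of the 11029 genes that averaged 5 CPM or more, those whose log2 CPM followed that of BOK most closely over the 9 libraries were CA11 (Pearson's r = 0.996), PLCD3 (0.993) and LRRN2 (0.993), and 494 genes had r over 0.95. BOK was taken as the member of largest change, and the libraries share the order of the days, so these values are a description.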

How the data were processed

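RNA was measured by poly-A sequencing in 9 libraries of 1 cell line. The authors deposited estimated counts per gene symbol as whole numbers. Per the submitters' processing notes, kallisto 0.44.0, bcl2fastq 2.19 and DESeq2 were used, and GRCh38, hg38 and GRCm38 are listed as builds, with no role given for any. How transcripts were summed and made whole, and whether strand was used, is not given in the sources used here.

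The deposited estimated counts were rounded, filtered with filterByExpr (minimum count 10), scaled by TMM and tested with edgeR 4.0.16 under R 4.3.3 (quasi-likelihood, 1 mean per day over all 9 libraries, Benjamini-Hochberg adjustment over 15345 genes, threshold 0.05). Alternatives used other scalings and filters, DESeq2 1.42.0, limma-voom (limma 3.58.1), fewer libraries and a replicate block. p-values are for a difference between day means, judged against the spread between these libraries of 1 cell line. Named genes are the members, up to 3 genes per list past the threshold with the lowest p by day 6 (else the 2 most abundant), and the 3 genes most like the member of largest change. CYCS, the p53 targets that fell and the cell type markers were named outside this rule. Members and lists were chosen with earlier results of these data known. Alternatives for the lists were added after seeing the data. The fit was tested on simulated data for day 6 against day 0, with 50 changed genes of each size among 14994. It recovered 14 of 50 at a true log2 change of 0.4, 32 at 0.75, 44 at 1.5 and 48 at 2.5, with 13 false calls. Far fewer genes changed there than the 8380 called in the data, so these rates do not carry over directly. Gene coordinates are those of GENCODE 29 on GRCh38, 1-based.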

Additional observations from a re-analysis of the deposited data

Results flagged for a closer look

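Changes against day 0 differed between day 3 and day 6 for 2 members, by edgeR's test of day 6 against day 3 itself. BBC3 was higher on day 6 than on day 3 by a log2 difference of 0.75 (adjusted p = 0.000148), and HRK by 0.48 (adjusted p = 0.00711), with all 3 day 6 libraries above all 3 day 3 libraries for each gene. For the other 8 members this test did not pass, which does not show that their changes were equal on both days.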

How the results depend on the processing

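Of 30 member results 14 passed the threshold, and all 250 of their values under the alternatives kept direction and call, with 18 alternatives for each gene except BOK (17, since it lies under a mean of 5 CPM and was not tested there). The highest adjusted p among them was 0.0484, for HRK on day 6 against day 3. Replicate numbers did not pair the libraries (4 of 9 same-numbered pairs correlated over 0.1, and 3 libraries correlated best with their own number). With the replicate block 6115, 8305 and 2293 genes and 6, 6 and 2 members were called. The number of genes called on day 6 against day 3 (2497) was 1248 among genes averaging 5 CPM or more and 4331 with only the 2 days compared, and leaving out 1 library gave 1606 (without day 3 replicate 2) to 4681 (without day 0 replicate 2). Scaling by library size only moved the median log2 change of all genes to 0.09 and 0.13 on days 3 and 6 against day 0, and the share of calls that were higher from 55.3% to 69.2% and from 53.01% to 66.5%. With only the 2 days compared that share on day 6 against day 3 was 57.9% instead of 70.7%.

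Changes near 0 that turned sign, none of them called, were these log2 values. Scaled by library size only, BCL2L1 had 0.076 on day 3 and 0.0073 on day 6, and on day 6 BAX had 0.022, BCL2L11 0.0496, BCL2L2 0.018 and BCL2L12 0.076. Among genes averaging 5 CPM or more, BCL2L1 had 0.051 on day 3, and on day 6 BCL2L11 had 0.023 and BCL2L12 0.045. With no filter, both BAK1 and BCL2L13 had -0.011 on day 6. Leaving out 1 library gave -0.022 to 0.011 for BCL2L1 and -0.011 to 0.103 for BAX on day 3, and on day 6 -0.065 to 0.1004 for BAK1, -0.025 to 0.038 for BCL2L13 and -0.129 to 0.104 for BCL2L12. The cause of these shifts was not tested. Per-length levels moved by more than 1 SD with the median transcript length in 28 of 30 cases. Depth limits BOK, whose day 0 libraries held 5 to 9 counts.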
